A study of Mus musculus with 6 samples.

Results

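The genes followed here mark the step at which an oligodendrocyte precursor cell (OPC), the dividing glial cell of brain and spinal cord, commits to becoming a myelin-forming oligodendrocyte. They are 10 genes chosen by name: Gpr17, Enpp6, Myrf, Bcas1, Itpr2, Tcf7l2, Zfp488, Sirt2, Neu4 and Myt1. Their 20 probes were found by gene symbol or older synonym among 45281 probes of an Illumina bead array. The single Myrf probe carries the older name Gm98, and probes named Tcf4, an old synonym of Tcf7l2 that is also the current name of another gene, were not taken. A probe counted as tested when it exceeded the background floor, the 95th percentile of olfactory receptor probes on the same array, on at least 3 of the 6 arrays. This held for 11 of the 20 probes and for 9 of the 10 genes, out of 11226 tested genes, and Myrf was not above background on any array.

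Total RNA came from 6 primary cultures of OPC of C57BL/6 mouse pups aged 6 to 8 days, 3 from cerebrum and 3 from spinal cord. All were kept 7 days in vitro in proliferating conditions with 10 ng/ml PDGF-AA, the growth factor that drives OPC division, so no culture was set to differentiate. Each preparation pooled 3 to 4 pups and gave 1 sample of each tissue under one replicate number. The comparison asked how far OPC of the 2 tissues differ in expression, and a second asked how far the 3 preparations differ. All 12 listed OPC markers, among them Pdgfra, Cspg4 and Sox10, were tested, whereas 10 of 14 microglial markers were not. Of astrocyte markers 7 of 12 were tested, without Gfap, Aldh1l1 and Gja1, and of neuron markers 5 of 13. In such bulk RNA a smaller share of cells of a type and less RNA per cell cannot be told apart.

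As background, a precursor that stops dividing first switches on Gpr17, a G protein-coupled receptor that holds cells in an immature committed state. Newly formed oligodendrocytes then express Enpp6, a choline phosphodiesterase, Itpr2, a calcium release channel of the endoplasmic reticulum, Tcf7l2, an effector of Wnt signalling, and Bcas1, a protein of cells beginning to myelinate. Myrf, a membrane-bound transcription factor, and Zfp488, a zinc finger partner of Olig2, drive the programme towards myelin genes. Sirt2 encodes a tubulin deacetylase of oligodendrocytes, Neu4 a sialidase, and Myt1 a zinc finger transcription factor of the lineage.

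Differences passed the threshold between the tissues in Gpr17, Itpr2, Enpp6 and Myt1, for Itpr2 and Enpp6 only where the fit held the preparation as a block. Promoter windows of these members are shown where the set of promoter windows used (RefSeq, build GRCm38.p6) held an entry. They run from 250 bases before to 50 bases after the start, and 7 of the 10 members had one. Gpr17 had no entry in that set, so no window is shown for it. Each line reads 5′ to 3′ along the gene, with matches to any of 4 motifs in capitals. These were 2 SOX motifs, ACAAAG and ACAATG, the TCF motif ATCAAAG and the E-box CAGCTG, searched on both strands. No match in these windows overlapped another motif. For Myt1 the first of 3 annotated starts is given.
Enpp6, chr8:46986637-46986936, plus strand: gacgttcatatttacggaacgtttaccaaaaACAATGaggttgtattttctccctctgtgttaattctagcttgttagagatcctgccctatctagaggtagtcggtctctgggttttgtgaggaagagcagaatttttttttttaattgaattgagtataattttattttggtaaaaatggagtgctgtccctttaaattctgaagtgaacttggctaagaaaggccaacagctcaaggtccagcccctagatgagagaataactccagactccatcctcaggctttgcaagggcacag
Itpr2, chr6:146502174-146502473, minus strand: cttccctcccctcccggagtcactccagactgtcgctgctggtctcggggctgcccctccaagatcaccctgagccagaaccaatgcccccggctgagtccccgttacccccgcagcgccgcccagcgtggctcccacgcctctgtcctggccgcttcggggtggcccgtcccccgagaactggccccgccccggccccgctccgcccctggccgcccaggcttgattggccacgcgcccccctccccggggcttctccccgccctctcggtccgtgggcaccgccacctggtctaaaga
Myt1, chr2:181763082-181763381, plus strand: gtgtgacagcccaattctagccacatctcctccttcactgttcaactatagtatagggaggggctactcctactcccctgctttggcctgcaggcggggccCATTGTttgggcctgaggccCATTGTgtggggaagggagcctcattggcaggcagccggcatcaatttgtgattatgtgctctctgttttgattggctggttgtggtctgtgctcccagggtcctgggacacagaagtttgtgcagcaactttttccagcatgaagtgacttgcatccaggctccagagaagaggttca
The Enpp6 window held 1 match to ACAATG, the Myt1 window 2 matches to its reverse complement CATTGT, and the Itpr2 window 0 matches to any of the 4. The windows at Myt1 starts 2 and 3, not printed, held 0 matches to ACAATG and 1 match each to ACAAAG or its complement CTTTGT. Among all 32851 windows 12.6% held ACAATG or its complement, 18.7% ACAAAG, 16.3% CAGCTG and 3.73% ATCAAAG. These matches describe letters in the windows, and nothing about binding was measured.

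Gpr17 was the member with the largest difference between the tissues. Its log2 intensity was 12.17, 12.36 and 13.34 in cerebrum replicates 1 to 3, against 11.23, 11.16 and 11.37 in spinal cord replicates 1 to 3. Every cerebrum array lay above every spinal cord array, and cerebrum replicate 3 lay furthest out. The mean was 12.62 ± 0.63 in cerebrum and 11.25 ± 0.11 in spinal cord (SD, n = 3 each), so the cerebrum samples spread far more. Gpr17 fell by 1.37 ± 0.23 from cerebrum to spinal cord (log2, SE), a 2.59-fold higher intensity in cerebrum, with an adjusted p of 0.00495 in limma. Limma moderates each probe's spread towards that of all probes. For Gpr17 the residual SD was 0.45 before and 0.28 after this step, so its own arrays alone would give a larger SE. The difference was -0.94 in preparation 1, -1.20 in preparation 2 and -1.97 in preparation 3. Without cerebrum replicate 3 the change was -1.01 with an adjusted p of 3.74e-06. In the 6 fits without 1 array it passed each time, and the highest adjusted p was 0.0439, without spinal cord replicate 2. It did not pass with both samples of preparation 2 left out (adjusted p = 0.15), a fit of 2 arrays per tissue.

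Itpr2 was lower in spinal cord on its 1 tested probe of 4. It had 8.80, 8.95 and 9.26 in cerebrum and 8.39, 8.49 and 8.53 in spinal cord (log2 intensity, replicates 1 to 3). The groups did not overlap, and the cerebrum sample was higher in each preparation, by 0.40, 0.46 and 0.73 in that order. The log2 fold change was -0.53 ± 0.13 (SE), a 1.45-fold higher mean in cerebrum, with an adjusted p of 0.0568 in limma without a block and 0.00159 with the preparation as a block. Without a block it passed in 2 of the 6 fits that leave out 1 array, without cerebrum replicate 1 (adjusted p = 0.0187) and without cerebrum replicate 3 (0.0453). The bright probe was designed on transcript variant 1, as was 1 of the 3 probes not tested. The other two are annotated to variant 2, so the measured difference is that of 1 probe.

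Myt1 was the member that passed in the other direction without a block. It had 10.75, 10.82 and 10.80 in cerebrum and 11.16, 11.36 and 11.30 in spinal cord (log2 intensity, replicates 1 to 3). The tissues were apart in every preparation, by 0.41, 0.55 and 0.50. The spread within a tissue was small, with means of 10.79 ± 0.03 and 11.27 ± 0.11 (SD, n = 3 each). Myt1 rose by 0.49 ± 0.10 (log2, SE), 1.40-fold, with an adjusted p of 0.0232 in limma and 0.000859 with the preparation as a block. Its size was 0.44 to 0.54 in the fits without 1 array, but only 2 of the 6 passed, and the adjusted p reached 0.181 without spinal cord replicate 2. The 4 arrays whose removal ended the call were cerebrum replicates 1 and 2 and spinal cord replicates 2 and 3.

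Enpp6 was higher in spinal cord within each preparation, while its level differed more between preparations than between tissues. The tested probe had 6.23, 5.97 and 7.70 in cerebrum and 7.25, 7.00 and 8.02 in spinal cord (log2 intensity, replicates 1 to 3). The tissues overlapped, because cerebrum replicate 3 lay above spinal cord replicates 1 and 2, and cerebrum replicate 2 lay below the floor. The spinal cord sample was higher by 1.01, 1.03 and 0.31 in preparations 1 to 3. The log2 fold change was 0.78, with an SE of 0.36 and an adjusted p of 0.519 without a block, and an SE of 0.12 and an adjusted p of 0.00034 with the preparation as a block (limma). Limma moderates each probe's spread towards that of all probes, and the residual SD of Enpp6 in the blocked fit was 0.29 before and 0.15 after this step, so that its own SE would be 0.24. Without a block Enpp6 passed in 1 of the 6 fits without 1 array, the one without cerebrum replicate 3 (1.32, adjusted p = 0.000321). The other 5 gave 0.45 to 0.99, with an adjusted p of 0.538 to 0.981. Since 1 cerebrum array was below the floor the fitted change is no exact size. The other Enpp6 probe was below the floor on all 6 arrays.

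The other 5 tested members did not pass between the tissues in either fit. Bcas1 had 14.58, 14.40 and 14.38 in cerebrum and 14.61, 14.35 and 14.42 in spinal cord, and its log2 fold change of 0.01 had a 95% interval of -0.20 to 0.21. Sirt2 had 9.80, 9.80 and 9.98 in cerebrum and 9.89, 9.66 and 9.94 in spinal cord, with an interval of -0.29 to 0.22. Neither interval reaches a difference of the size seen for Myt1 (0.49). Tcf7l2 had 8.30, 8.04 and 8.29 in cerebrum and 8.56, 8.28 and 8.05 in spinal cord on its brightest probe, with an interval of -0.21 to 0.39. Its second tested probe gave -0.30 to 0.24, and its 3 remaining probes were not tested. Zfp488 had 6.94, 6.74 and 7.19 in cerebrum and 6.81, 6.58 and 6.72 in spinal cord. It was lower in spinal cord within all 3 preparations, by 0.13, 0.17 and 0.47, with an adjusted p of 0.532 in limma and 0.172 with the block.

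Neu4 stood out in 1 array. Its brightest probe had 6.16, 6.19 and 7.04 in cerebrum and 6.41, 6.17 and 6.26 in spinal cord, so that all arrays but cerebrum replicate 3 lay close to the floor of 6.07 to 6.10. The second tested probe was also highest in cerebrum replicate 3, with 6.76 against 6.11 to 6.51 elsewhere. The third probe was above the floor in that array alone, with 6.75. The log2 fold change was -0.18 with a 95% interval of -0.59 to 0.22 and an adjusted p of 0.91 in limma. The Myrf probe read 5.58 to 5.74 on the 6 arrays, below the floor on each, and the difference between the tissues could not be measured with it.

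**Figure D1:**
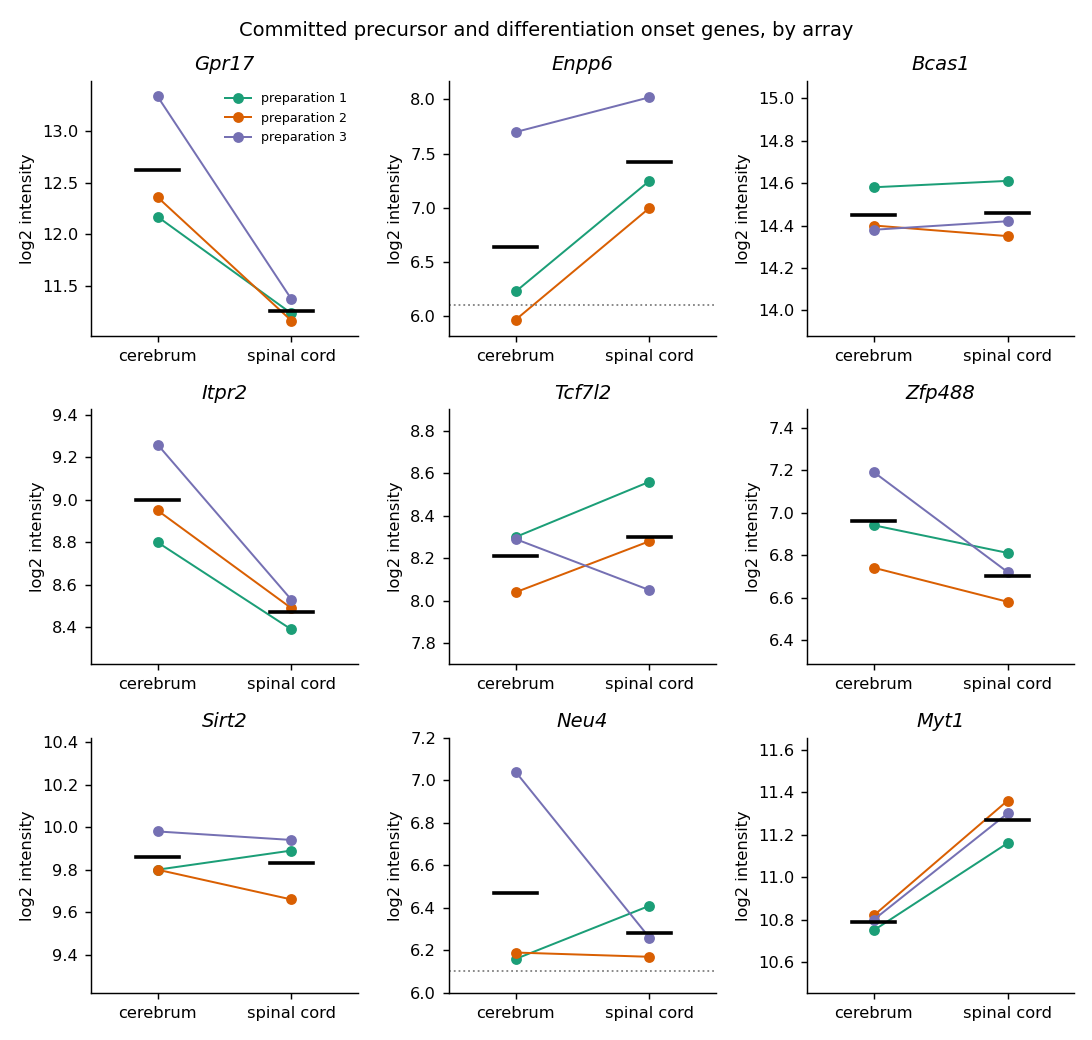
Log2 intensity of the probe used for each of the 9 tested genes in cerebrum and spinal cord OPC, where coloured lines join the samples of a preparation, black bars are tissue means and the dotted line is the highest background floor of the 6 arrays. Gpr17 and Itpr2 fall and Myt1 rises from cerebrum to spinal cord in every preparation, and Enpp6 rises from 3 different starting levels. The vertical axes differ between panels, and levels of different probes are not comparable.

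Without a block 1 of 9 tested members was higher and 1 lower in spinal cord. Under the block 2 were higher and 2 lower. Across all 11226 tested genes 1.87% were called higher and 1.08% lower without a block (2.95% in all), and 3.63% higher and 2.7% lower under it (6.33% in all). The sample groups did not overlap for 3 of the 9 members, with Myt1 higher and Gpr17 and Itpr2 lower in spinal cord, against 15.6% of all tested genes (8.55% higher and 7.02% lower). The direction was the same in all 3 preparations for 5 of the 9, against 36.7% of all tested genes. The median log2 fold change of the 9 was -0.03, against 0.00 for all tested genes, and the median absolute change was 0.26 against 0.08. The members thus had no common direction, with the receptor Gpr17 and the channel Itpr2 lower and the transcription factor Myt1 higher in spinal cord.

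**Figure D2:**
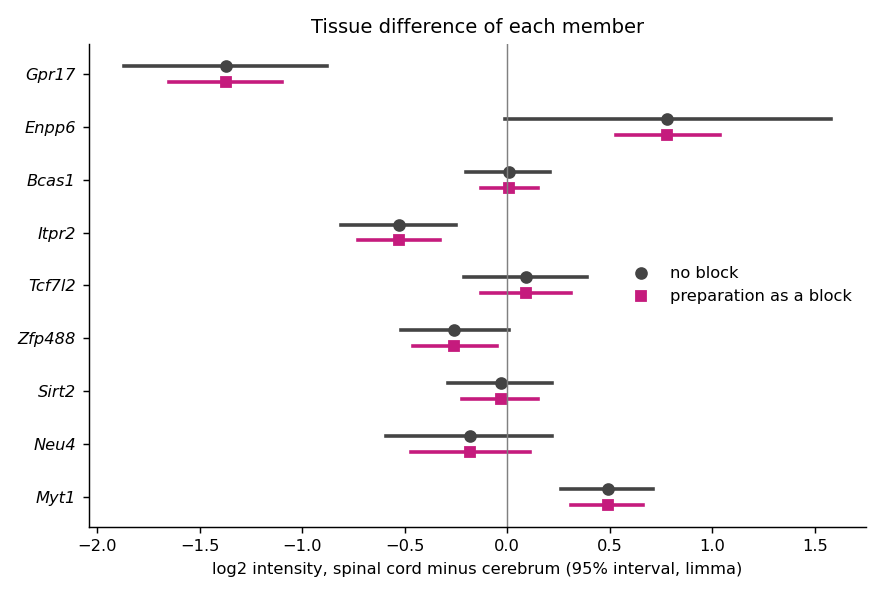
Difference in log2 intensity between spinal cord and cerebrum OPC for each tested gene with its 95% interval from limma, without a block (circles) and with the preparation as a block (squares). The intervals of Gpr17, Itpr2 and Myt1 exclude 0 in both fits, while that of Enpp6 runs from -0.01 to 1.58 without the block, before adjustment over all probes.

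The preparations were compared next with an F test of the preparation terms in a fit that also held the tissue. It passed for 2 of the 9 members, Enpp6 (adjusted p = 0.000155) and Gpr17 (0.0388), against 5.02% of all tested genes (limma). Averaged over the tissues, Enpp6 had 6.74, 6.49 and 7.86 in preparations 1 to 3 and Gpr17 had 11.70, 11.76 and 12.35, so that preparation 3 was highest for both. For Enpp6 this held in both tissues, where replicate 3 lay above its tissue mean by 1.07 in cerebrum and by 0.59 in spinal cord. For Gpr17 the cerebrum sample of preparation 3 lay 0.72 above its tissue mean and the spinal cord sample 0.12. Without cerebrum replicate 3 Gpr17 no longer passed (adjusted p = 0.594), while Enpp6 did (0.00025). With background subtracted neither gene passed, with adjusted p of 0.0547 for Enpp6 and 0.124 for Gpr17, and the count over all genes dropped from 563 to 11. Gpr17 also did not pass without an intensity trend (0.0596) or with the mean of a gene's probes (0.099). Its residual SD in the fit with tissue and preparation was 0.38 before and 0.16 after limma's moderation, so its own arrays alone would give a smaller F.

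Cerebrum replicate 3 was the highest cerebrum array for 6 of the 9 members, Gpr17, Enpp6, Itpr2, Zfp488, Sirt2 and Neu4, against 36.1% of all tested genes. Spinal cord replicate 3 was the highest spinal cord array for 4, against 31.5%. Replicate 3 was highest in both tissues for Gpr17, Enpp6, Itpr2 and Sirt2, a count of 4 against 19.1%. Bcas1 did not share this order and was highest in replicate 1 of both tissues, 14.58 in cerebrum and 14.61 in spinal cord. Myt1 differed least between preparations, with averages of 10.95, 11.09 and 11.05 and an adjusted p of 0.64.

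**Figure D3:**
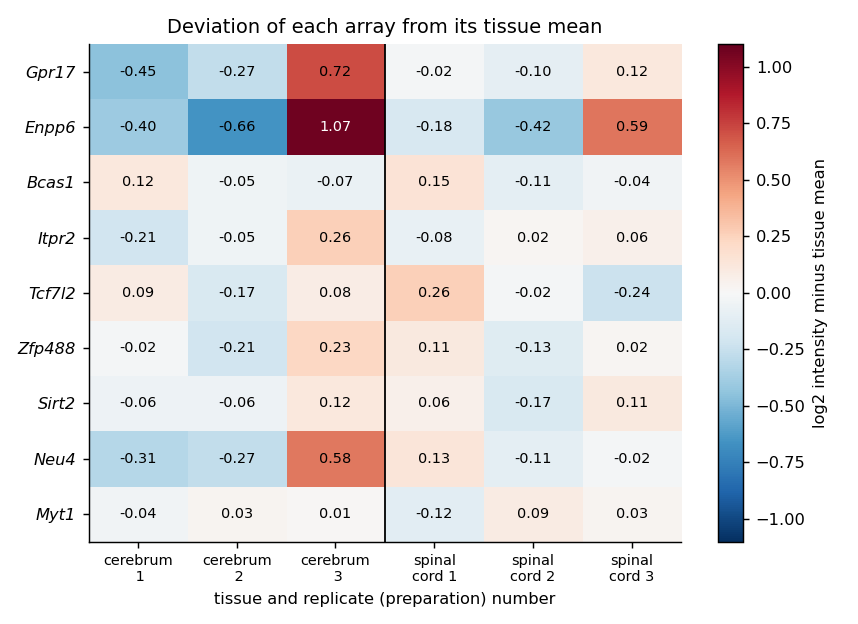
Deviation of the log2 intensity of each tested gene on each array from the mean of its tissue, as colour and number. The highest deviations above the mean are those of cerebrum replicate 3 for Enpp6 (1.07), Gpr17 (0.72) and Neu4 (0.58) and of spinal cord replicate 3 for Enpp6 (0.59).

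Genes of the myelin sheath follow the members in the same programme. Of 17 listed genes 8 were tested, and Mog, Mal, Mobp and Opalin, made by mature cells, were among those too dim to test. The F test of the preparation passed for 4 of the 8, among them Mag, Cldn11 and Fa2h, against 5.02% of all tested genes, and Mbp (adjusted p = 0.605) and Cnp (0.248) were among those that did not pass. Fa2h, the fatty acid hydroxylase gene of myelin lipids, had 8.84, 8.73 and 9.87 in cerebrum and 9.08, 9.05 and 9.48 in spinal cord, with an adjusted p of 0.0119 for the preparation. Replicate 3 was highest in both tissues, as for Enpp6. Mag, an adhesion protein gene of the myelin sheath, shared this order, with 6.05, 6.03 and 6.32 in cerebrum and 6.65, 6.54 and 7.51 in spinal cord and an adjusted p of 0.0294, while Cldn11 was highest in replicate 1 of both tissues (0.036). Between the tissues Mbp (myelin basic protein) alone passed without the block, rising by 1.04 ± 0.11 (adjusted p = 0.000111). With the block 3 were higher, Mbp, Mag and Cnp, and 1 was lower. Of all tested genes 2.95% were called between the tissues without and 6.33% with the block. Of the cell cycle genes 3 of 14 passed the F test, Mcm5, Mcm6 and Ccnd1. Cyclin D1 (Ccnd1) had 14.29, 14.27 and 13.73 in cerebrum and 14.67, 14.53 and 14.28 in spinal cord, lowest in replicate 3 of both. The part of these differences in the values of Enpp6 and Gpr17 was not tested.

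Markers of other cell types were read beside Gpr17 and Enpp6. The summed intensity of the 7 tested astrocyte markers was 31238, 30264 and 23554 in cerebrum replicates 1 to 3 and 21351 to 23094 in spinal cord. Sox9 gave 16539, 15687 and 9926 of the cerebrum sums and 4803 to 6912 of those in spinal cord. Without Sox9 the other 6 markers summed to 13628 to 14699 in cerebrum and to 15600 to 16975 in spinal cord. Every spinal cord sum lay above every cerebrum one. Bright genes weigh most in such a sum, and Aldoc, 1 of the 6, had mean log2 intensities of 12.51 in cerebrum and 12.83 in spinal cord. In that list Sox9 (-1.25 ± 0.18, adjusted p = 0.00155) and Acsbg1 (-0.79 ± 0.12, adjusted p = 0.0027) were lower in spinal cord. The other 5 were not called, Aldoc was higher with the block (0.33, adjusted p = 0.0126), and the list's median log2 fold change was 0.12. Sox9 is also expressed by precursors of the oligodendrocyte lineage. The sums were 305 to 330 in cerebrum and 314 to 338 in spinal cord for 4 tested microglial markers, and 1266 to 1627 against 1598 to 1918 for 5 neuron markers. They were 1264 to 1402 against 1299 to 1330 for 5 of 10 endothelial and mural markers, without Pecam1 and Cldn5, and 7167 to 10942 against 8725 to 9586 for 6 of 8 Schwann markers. The tested mural markers include Cspg4, which is also a listed OPC marker, and its part of the sum was not separated. Cdh5 and Tek of the same list lay near the floor, with mean log2 intensities of 6.12 and 6.19 in cerebrum and 6.07 and 5.97 in spinal cord. Of these lists the neuron, microglial and endothelial ones had 0 genes called between the tissues in limma, with 1 neuron gene, Dcx, and 0 in the other two under the block, and at an unadjusted p under 0.05 there was 1 gene each among the neuron and endothelial markers and 0 among the microglial ones. Sox2 of the Schwann list was lower (-0.70 ± 0.14, adjusted p = 0.0166), a call lost when replicate 2 of either tissue or spinal cord replicate 3 was left out. Among all tested genes 2.95% were called between the tissues without the block and 6.33% with it. The F test of the preparation passed for Sox9 (adjusted p = 0.00909), Pou3f1 of the Schwann list (0.0339) and Syt1 of the neuron list (0.0404). Each was lowest in replicate 3 of both tissues. Among the microglial and endothelial markers 0 passed it, and 5.02% of all tested genes did. The part of other cell types in the members' values was not tested.

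Other genes of committed precursors and new oligodendrocytes were followed in a list of 23, of which 16 were tested. Without a block 0 were higher and 1 was lower in spinal cord, and with the block 0 and 6. Across all tested genes 2.95% were called in either direction without a block and 6.33% with it. The list's median log2 fold change was -0.12. Cemip2, a hyaluronan-degrading cell surface enzyme, fell by 0.74 ± 0.15 (SE, adjusted p = 0.0216), a call that was lost without cerebrum replicate 1 or 2 or spinal cord replicate 1 or 3, with a highest adjusted p of 0.135. Neither of its 2 other tested probes passed. Under the block the kinase gene Fyn, Rnf122, Lims2, Chn2 and the phosphatase gene Dusp15 were lower as well. Lims2, which encodes an adaptor of integrin adhesions, had 9.57, 9.67 and 10.55 in cerebrum and 9.20, 9.14 and 9.49 in spinal cord. Its preparation difference passed too (adjusted p = 0.021), with replicate 3 highest in both tissues as for Gpr17. Vcan, the gene of the proteoglycan versican, passed as well (0.0268) with the opposite order, 7.79, 7.44 and 7.24 in cerebrum and 7.90, 7.71 and 7.30 in spinal cord. Replicate 3 was highest in both tissues for 2 of the 16 genes, against 19.1% of all tested genes. In the RefSeq gene table the span of Lims2 contains that of Gpr17 on chromosome 18, and where the probes of either lie was not examined. The overlap was looked up after the values were seen.

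Factors that act on the same step were divided by role. Of 18 tested genes that promote differentiation 1 was higher and 0 lower, without and with the block, and Olig2 and Sox10 were not called. The share of all tested genes called in either direction was 2.95% without and 6.33% with the block. Klf9, a Krüppel-like factor induced by thyroid hormone, rose by 0.97 ± 0.12 (log2, SE, adjusted p = 0.000325), with the same call in every fit without 1 array. Of the 18, 2 passed the F test of the preparation, Sox8 (adjusted p = 0.0258) and Ep300 (0.0392), against 5.02% of all tested genes. Replicate 3 was highest in both tissues for Sox8, and replicate 1 for Ep300. Of 12 tested genes that hold differentiation back 0 were higher and 1 lower without the block, and 0 and 3 with it. The F test passed for 0 of these. Sox5 fell by 0.57 ± 0.11 (adjusted p = 0.0132), and was not called without cerebrum replicate 2 or without spinal cord replicate 2 (0.111). Hes5, a Notch effector, and the phosphatase gene Ptprz1 were lower with the block, with adjusted p of 0.0197 and 0.00777. Sox5 and Ptprz1 are also among the 12 listed OPC markers. Of those markers 0 were higher and 1 lower without the block, and 0 and 2 with it.

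Tcf7l2 acts with other Wnt pathway proteins, of which 13 were tested, 2 higher and 1 lower in spinal cord without a block. With the block 3 were higher and 1 lower, which added Tle3 (0.35, adjusted p = 0.0341 in limma). Tle4, a Groucho corepressor that binds TCF factors, fell by 0.92 ± 0.12 (log2, SE, adjusted p = 0.000626), while its relative Tle1 rose by 0.50 ± 0.12 (0.0421). The R-spondin receptor gene Lgr5 rose by 0.80 ± 0.17 (0.0237). Tle1 lost its call without cerebrum replicate 2 or any 1 of the spinal cord arrays, with adjusted p reaching 0.242. Lgr5 lost it without cerebrum replicate 2 or spinal cord replicate 1 or 2, reaching 0.159, and Tle4 in 0 of the 6 such fits. The remaining tested probes of Tle1 and Tle4 did not pass, and 1 of the 3 for Tle1 had the opposite sign. Without a block the share called was 23.1% of the list, against 2.95% of all tested genes for either direction, as a description of a short list. With the block 6.33% of all tested genes were called. The F test of the preparation passed for Lgr5 alone (adjusted p = 0.0276), against 5.02% of all tested genes.

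Family relatives of the members were tested in 16 of 27 cases. Without a block 1 was higher and 1 lower, against 2.95% of all tested genes called in either direction. With the block 2 were higher and 1 lower, against 6.33%. Enpp2 (autotaxin), a relative of Enpp6, was lower by the log2 fold change of -0.65 ± 0.15 (SE, adjusted p = 0.0349) and lost its call without cerebrum replicate 1 or any 1 of the spinal cord arrays (0.222 at most). Enpp1, another relative, was higher with the block only (0.46, adjusted p = 0.00612), as Enpp6 was. Myrfl, a relative of Myrf, was not above background in cerebrum on the probe used and was brighter in spinal cord by at least 1.21-fold (adjusted p = 0.0121). Its other tested probe had the opposite sign, and the call was lost without cerebrum replicate 2 or spinal cord replicate 1 or 2 (0.0686 at most). St18, a relative of Myt1, and Tcf7 and Lef1, relatives of Tcf7l2, were too dim to test.

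**Figure D4:**
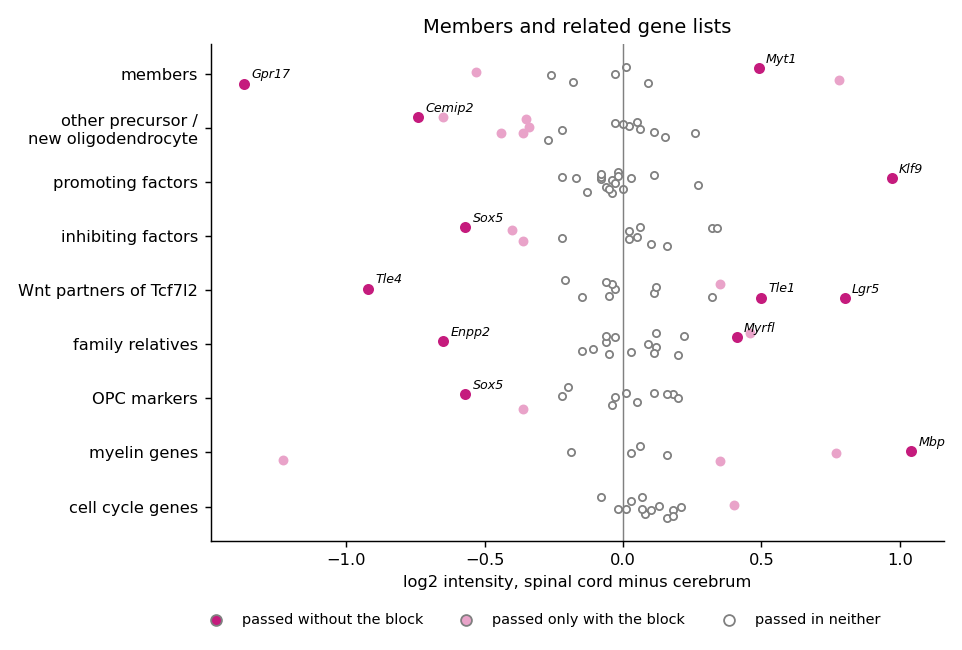
Difference in log2 intensity between spinal cord and cerebrum OPC of every tested gene in the member list and 8 related lists, with filled points for genes past an adjusted p of 0.05 in limma (dark without a block, pale only with the preparation as a block). Gpr17 has the lowest value of the genes shown and Mbp the highest, and vertical position within a list carries no value.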

How the data were processed

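Linear probe intensities of the authors' deposited value table were used, whose columns carry sample names. All 6 arrays had the same minimum (36.49), upper quartile (162.7) and maximum (49682), with medians of 64.50 to 64.51, as quantile normalisation leaves them. Background remained (olfactory receptor probe medians of 52.25 to 52.99), so fold changes of dim genes are understated. Per the submitters' processing notes GenomeStudio 2011.1 was used, and the normalisation method was not given in the sources used here. A further table's 12 per-sample columns match no sample labels and were not used, only its gene symbols. Symbols were updated through NCBI's table for GRCm38.p6 (16219 of 30869 current, 5718 by synonym). No file gives probe positions or sequences.

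Log2 intensities were computed and tested with limma 3.58.1 in R 4.3.3 (intensity trend) over 20988 tested probes, with Benjamini-Hochberg adjustment and a threshold of 0.05, and a gene was its brightest tested probe. The number of arrays limits the precision, with a median SE of 0.11 without and 0.09 with the block. Replicate numbers pair the samples per the labels' design text, and deviations from tissue means correlated with 0.53, 0.21 and 0.50 for same-numbered samples and with -0.45 to 0.03 otherwise.

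Members and lists were chosen with earlier results of these data known. Named genes were all members, the 4 called genes of lowest adjusted p in each list (in lists without calls, the 2 genes of largest change), and the 3 genes most correlated with each called member. Genes passing with the block or the F test alone, Mog, Opalin and other genes named as too dim to test, and the overlap of Lims2, were added after seeing values. Some genes of the lists are counted but not reported here by name.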

Additional observations from a re-analysis of the deposited data

How the results depend on the processing

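Gpr17 kept its direction in every alternative run. Some of these runs could hardly change its estimate. Quantile normalisation and median centring gave -1.37 as before, because the arrays already had nearly the same distribution. Averaging probes left the estimate as it was, because Gpr17 has 1 probe. The number of members higher in spinal cord (1) and lower (1) became 2 and 2 with the preparation as a replicate block, which added Enpp6 and Itpr2. Without an intensity trend 2 members were lower, with Itpr2 at an adjusted p of 0.0467. The range over the fits without 1 array was 0 to 2 higher and 1 to 2 lower members, and 1 to 5 members with a preparation difference (2 with all arrays), from fits with 1 residual degree of freedom. That last number was 1 with a floor on all 6 arrays (where Enpp6 was no longer tested), 0 with background subtracted, 1 without a trend and 1 with the mean of a gene's probes. With both samples of a preparation left out, chosen after seeing the data, 0 members were higher without preparation 1, 0 higher and 0 lower without preparation 2, and 2 higher without preparation 3. Over all genes the count of calls was 331, 711 with the block, and 574, 202, 216 and 196 without cerebrum replicate 3, cerebrum replicate 2, spinal cord replicate 1 and spinal cord replicate 2. It was 563 for the preparation difference, and 351 without a filter, 383 without a trend, 121 with mean probes and 11 with background subtracted. Leaving out cerebrum replicate 1 or 3 lowered it to 318 and 228, and leaving out spinal cord replicate 2 or 3 raised it to 897 and 2291. The causes were not tested.

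Signs turned in members near 0 only. Over the fits without 1 array Bcas1 ran from -0.07 to 0.07, Tcf7l2 from -0.04 to 0.21, Sirt2 from -0.09 to 0.05 and Neu4 from -0.34 to 0.11 (log2 fold change). The sign turned for Bcas1 without cerebrum replicates 2 or 3 or spinal cord replicate 1, for Tcf7l2 without spinal cord replicate 1, for Sirt2 without cerebrum replicate 3 or spinal cord replicate 2, and for Neu4 without cerebrum replicate 3. Bcas1 had -0.01 without preparation 1 or 3, Sirt2 0.02 without preparation 2 and Neu4 0.12 without preparation 3. Enpp6 had a log2 fold change of 1.60 with background subtracted (adjusted p = 0.523).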

Other observations

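Genes whose log2 intensity over the 6 arrays was most like that of the 2 members called without a block were looked up as a description. The 6 points come from 3 preparations and are not independent. For Gpr17 these were Ampd3 (Pearson r = 0.995, Spearman rho = 1.0), Ada (0.987 and 0.829) and Thap1 (0.985 and 0.943). Ampd3 and Ada both encode deaminases of adenine compounds. For Myt1 they were Hid1 (0.996 and 1.0), Wnk4 (0.992 and 0.943) and Wscd1 (0.990 and 0.829). Ampd3 fell by 0.72 between the tissues (adjusted p = 0.014 in limma), and Wnk4 rose by 0.51 (0.0137) and Wscd1 by 0.67 (0.00535). Ada, Thap1 and Hid1 did not pass, with adjusted p of 0.246, 0.251 and 0.383. Since the genes were picked for following members that differ between the tissues on the same arrays, their own differences are no separate result.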
